A study of Mus musculus with 8 samples.

Results

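The miRNAs of the imprinted Dlk1-Dio3 region were followed through 8 small RNA libraries of mouse liver. Members were the miRNA names, with either arm suffix, that carry 1 of 48 numbers known from this region (miR-127, miR-134 and so on), chosen by name and not by level. Of the 48 numbers, 37 had at least 1 read in the series and 11 had none (miR-299b, miR-323, miR-412, miR-493, miR-539, miR-544, miR-654, miR-665, miR-667, miR-668 and miR-770). The 37 numbers gave 53 of the 862 names listed. All mice were male wild-type C57BL/6J, aged 8 weeks at the start and housed singly, and were kept for 12 weeks on 1 of 2 diets. The ad libitum (AL) group ate freely, and the caloric restriction (CR) group received 20% less food in the first week and 40% less in the other 11 weeks. For whole liver, RNA was extracted directly and 3 RNA samples of a diet were pooled into 1 library, which gave an AL pool and a CR pool. For mitochondria, organelles stripped to mitoplasts (mitochondria without their outer membrane) by differential centrifugation gave 3 libraries per diet. Whether the 3 are separate animals is not said in the labels, and the p-values below rest only on the spread among these libraries, which may be technical.

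The Dlk1-Dio3 region carries one of the densest groups of miRNA genes of the mouse genome. The long non-coding transcripts Meg3, the RNA antisense to Rtl1, Rian and Mirg are expressed from the maternal chromosome and give rise to these miRNAs, while Dlk1, Rtl1 and Dio3 are expressed from the paternal one. The miRNAs are known as abundant in brain, placenta and embryo and as scarce in adult liver. The miR-379 to miR-410 group has been linked to the metabolic adaptation of the newborn liver, and miR-379 to lipid handling under glucocorticoids in the adult liver.

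The mature sequences of the 8 members on which the results turn are shown first, each from the deposited tables, 5′ to 3′, with the seed (bases 2 to 8, the part that pairs with targets) in capitals.
miR-379-5p: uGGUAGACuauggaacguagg
miR-411-5p: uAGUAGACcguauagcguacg
miR-381-3p: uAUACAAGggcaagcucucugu
miR-541-5p: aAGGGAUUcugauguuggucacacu
miR-127-3p: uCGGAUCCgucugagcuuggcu
miR-127-5p: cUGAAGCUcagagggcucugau
miR-434-5p: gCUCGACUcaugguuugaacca
miR-136-5p: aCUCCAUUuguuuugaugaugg
The 53 names carried 52 different seeds, and only the sparse partner arms miR-379-3p (2 reads in all) and miR-411-3p (6 reads in all) shared 1. The 5p arms of the same neighbours, miR-379-5p and miR-411-5p, are both 21 bases long and differ at 7 bases, 1 of them in the seed. Of the 53 names 50 were found in the RefSeq table of miRNAs (GRCm38.p6), all 50 with the same sequence. The median GC content of the 53 was 45.5%, against 47.8% over the 823 annotated names.

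RefSeq places the 36 hairpins found there on the plus strand of chromosome 12, over 158 kb from 109585789 (Mir337) to 109743795 (Mir410) in GRCm38.p6. The authors' alignment used mm9, so these positions are annotation only. Mir127 (109592846 to 109592915), Mir434 (109594506 to 109594599) and Mir136 (109595327 to 109595388) lie opposite an exon of Rtl1. Mir379 (109709060 to 109709125) and Mir411 (109710175 to 109710256) start 1.12 kb apart, with no annotated gene other than the hairpins around them on that strand, as also for Mir381 (109726822 to 109726896). Mir134 (109734139 to 109734209) overlaps an exon of Mirg, and Mir541 (109742409 to 109742498) lies in an intron of Mirg.

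Library depth was 1070762 to 1577691 miRNA reads in mitochondria, 2431564 in the AL pool and 3242002 in the CR pool, and a read was worth 0.308 to 0.934 RPM (reads per 1000000 miRNA reads). The hepatocyte miRNAs fixed as a check of the tissue (miR-122, miR-192, miR-194 and miR-148a) took 46.4% to 70.3% of the reads. CR mitochondrial replicate 2 stood apart: it held 100 reads of the islet miRNA miR-375-3p and 52 of the pancreas miRNA miR-217-5p, where no other library had over 8 and 5, so values without it are given below. The neuronal list had a sum of 22.8 to 41.5 RPM across mitochondrial libraries and of 65.8 (AL) and 87.3 (CR) RPM in whole liver, with its defining miR-124 not listed in any library. The list of stellate cells, fibroblasts and smooth muscle lay between 25661 and 47454 RPM in mitochondria, against 14709 (AL) and 15881 (CR) RPM in whole liver. The endothelial list stood at 6694 to 9437 RPM in 5 mitochondrial libraries, at 18066 RPM in CR replicate 2, and at 19607 (AL) and 14978 (CR) RPM in whole liver. Over the 8 libraries leukocyte miRNAs summed to at most 422 RPM, erythroid miRNAs to 26.0 to 69.4 RPM and muscle miRNAs to 17.5 to 161 RPM. The part of these other cells in the results that follow was not tested. Intervals of shares and sums are exact Clopper-Pearson intervals at 95% and cover counting error only.

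The cluster was rare in liver. Its 53 names took 1399 of the 13123767 reads of the series, between 88 and 305 reads in a library. The summed level was 118 RPM in the AL pool (95% interval 105 to 132.5) and 94.1 RPM in the CR pool (83.8 to 105). In AL mitochondria it was 98.8, 125 and 120 RPM, or 114 ± 13.9 RPM (SD, n = 3). In CR mitochondria it was 80.8, 132 and 82.2 RPM, or 98.3 ± 29.1 RPM (SD, n = 3), and 81.5 RPM without CR replicate 2. The 3 CR values thus lay on both sides of the AL values, and CR replicate 2 held the highest sum of all. The difference of the means, CR minus AL, was -16.2 RPM. It was -33.0 RPM without CR replicate 2, with both remaining CR sums below all 3 AL sums, and -7.45 RPM without CR replicate 1 and -8.16 RPM without CR replicate 3. With TMM factors it changed sign (6.02 RPM), and with DESeq2 size factors it was -1.45 RPM. Over the 6 mitochondrial libraries the mean was 106 RPM and over the 2 pools 106 RPM. The ratio depended on the scaling: 1.003 as deposited, 1.23 with TMM factors, 1.24 with DESeq2 size factors and 1.33 with miR-122 left out of the totals. miR-122-5p, part of the deposited totals, stood at 254251 (AL) and 262739 (CR) RPM in the pools. In mitochondria it stood at 251755 RPM in CR replicate 2 and at 378919 to 580803 RPM in the other libraries.

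**Figure D1:**
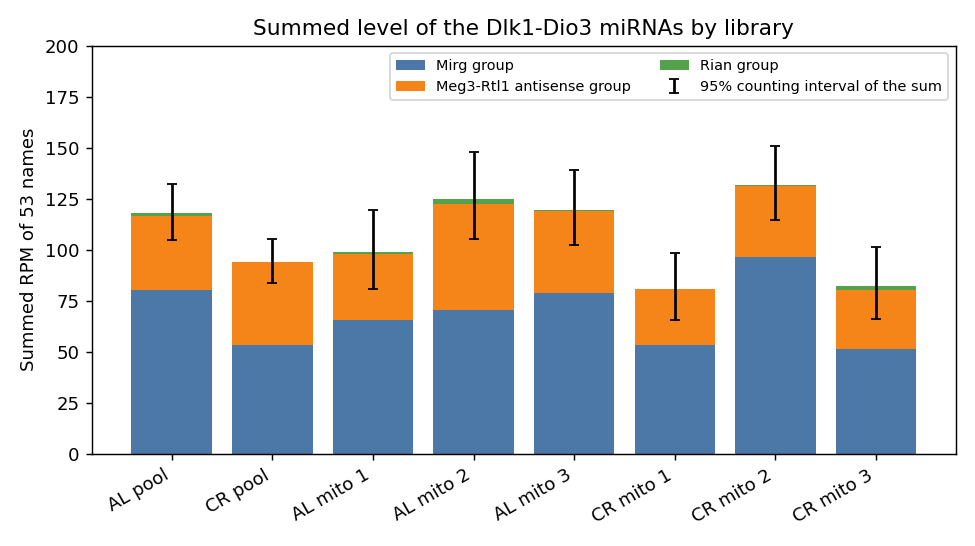
Summed RPM of the 53 Dlk1-Dio3 names in each of the 8 libraries, stacked by hairpin group, with the 95% counting interval of the sum. The sums run from 80.8 to 132 RPM, with mitochondrial libraries on both sides of the pools.

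By position, the miR-379 to miR-410 (Mirg) group gave 65.1% of the members' summed RPM in mitochondria and 63.0% in the pools. The group named for the Meg3 and Rtl1 antisense transcripts gave 33.8% and 36.3%, and the Rian group, miR-341-3p and miR-370-3p, 1.08% and 0.727%. None of the hairpins with reads in the former group lies in Meg3 in the annotation used. Mir337 and Mir540 have no annotated gene around them, and the others lie opposite an exon of Rtl1. In the pools, the Mirg group stood at 80.2 RPM under AL and 53.4 RPM under CR, and the Meg3 and Rtl1 antisense group at 36.6 and 40.4 RPM. Single libraries spread more widely: the Mirg group made up 67.9% of the AL pool, 56.7% of the CR pool and 56.2% to 73.1% of the mitochondrial libraries, so the 2 kinds of RNA overlapped.

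Few members carried these reads. miR-379-5p, miR-127-3p and miR-381-3p held 52.1% of them and the 10 most read names 80.6%. By contrast 36 names had 10 reads or fewer over all 8 libraries, 11 had a single read, and 7 were listed in all 8 libraries, against 319 of all 862 names. There were 36 names with reads in both kinds of RNA, 12 with reads in mitochondria alone (at most 10 in all) and 5 in the pools alone (at most 3). A name at 0 reads in 1 library is not shown to be absent, since 0 reads allow up to 0.925 to 1.23 RPM (3 reads) in the pools and up to 1.90 to 2.80 RPM in the mitochondrial libraries.

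miR-379-5p, the first miRNA of the Mirg group, led the cluster. Its level was 30.02 RPM in the AL pool and 15.1 RPM in the CR pool, from 73 and 49 reads. In AL mitochondria it was 23.1, 35.6 and 32.3 RPM, and in CR mitochondria 25.0, 53.9 and 18.7 RPM. The CR values spanned the AL values, and the highest came from CR replicate 2. miR-127-3p, which is fully complementary to the Rtl1 transcript, was at 26.7 RPM in the AL pool and 19.4 RPM in the CR pool. Its mitochondrial levels were 13.8, 24.7 and 17.6 RPM under AL and 13.3, 10.8 and 12.1 RPM under CR. All 3 CR values were below all 3 AL values, as for 14.3% of all miRNAs tested between the diets. The closest were 13.8 RPM from 15 reads in AL replicate 1 and 13.3 RPM from 16 reads in CR replicate 1. The order of these 2 libraries thus came from their depth. miR-379-5p stood above miR-127-3p in the AL pool and in all 6 mitochondrial libraries, and below it in the CR pool.

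**Figure D2:**
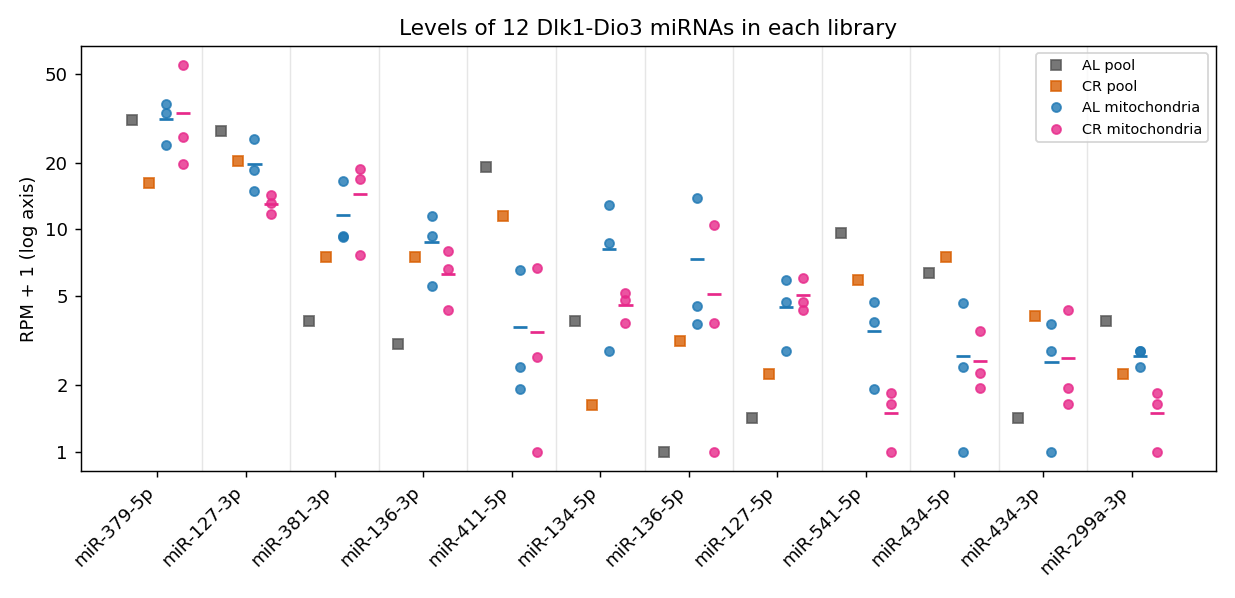
Level of 12 named members in each library on a log axis of RPM + 1, ordered by mean level, with squares for the 2 pools, circles for the mitochondrial libraries and bars at the means of 3. miR-411-5p, miR-541-5p and miR-434-5p lie lower in all 6 mitochondrial libraries than in both pools, and miR-127-5p and miR-381-3p higher. Over all miRNAs tested 42.0% did not overlap between the 2 kinds of RNA.

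The first comparison asks which of these miRNAs stand at another level in mitochondria than in whole liver. The cluster did not move as a block: miR-411-5p and miR-541-5p, both of the Mirg group, were lower in mitochondria, and miR-127-5p was higher. Neighbouring miR-379-5p did not pass the test. By limma-trend on log2(RPM + 1), with diet as a term and Benjamini-Hochberg adjustment over all 417 miRNAs tested, 17 of the 53 members could be tested and the other 36 were too low. Of the 17, 1 was higher and 2 were lower at an adjusted p under 0.05, 17.6% of the tested members. Over all miRNAs tested 32.1% were called, 10.6% higher and 21.6% lower, so the members' share lay under the background. The log2 fold change was above 0 for 10 of the 17 members (58.8%) and for 40.5% of all tested. The median log2 fold change was 0.45 over the 17 members and -0.31 over all 417. The filter (1 RPM in 3 libraries) could be met by mitochondria alone but not by the 2 pools alone. miR-154-5p, miR-410-3p, miR-376c-3p and miR-382-5p entered with both pools under 1 RPM, and all of them are among the 10. With no filter the median was -0.0024 over the 53 members and -0.16 over all 862 names. The median over all 417 shifted to -0.10 with TMM factors and -0.08 with DESeq2 size factors, and the 44 higher and 90 lower calls over all miRNAs became 59 and 72, and 62 and 72.

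miR-411-5p gave the largest difference. It had 44 reads in the AL pool and 34 in the CR pool, or 18.1 and 10.5 RPM. In AL mitochondria there were 6, 1 and 2 reads (5.54, 0.913 and 1.41 RPM), and in CR mitochondria 2, 9 and 0 (1.67, 5.70 and 0 RPM). All 6 mitochondrial libraries were below both pools. The level was 5.19-fold lower in mitochondria as fitted (95% interval 2.02 to 13.4), with a log2 fold change of -2.38 (SE 0.65, limma adjusted p = 0.00826). Without CR replicate 2 it was -2.71 (adjusted p = 0.00200). The call rests on having both pools: with the AL pool left out the adjusted p was 0.170 and with the CR pool left out 0.0940, where a lone pool is assumed to vary like the mitochondrial libraries. With no filter on low values it was 0.0568, and over the 15 alternatives that gave a value it ranged from 0.00200 to 0.170.

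The pair miR-379-5p and miR-411-5p, from adjacent hairpins, thus split between the 2 kinds of RNA. miR-411-5p made up 37.6% of the pair's reads in the AL pool (95% interval 28.8% to 47.0%) and 41.0% in the CR pool (30.3% to 52.3%). In mitochondria its share was 19.4%, 2.50% and 4.17% in the AL libraries and 6.25%, 9.57% and 0% in the CR libraries, where 0 of 20 reads allow up to 16.8%. Every mitochondrial share was under both pool shares. For miR-379-5p itself the log2 fold change between mitochondria and whole liver was 0.45 (SE 0.44, adjusted p = 0.440, 95% interval -0.46 to 1.37), and it was -0.0075 without the CR pool. The number of mismatches the authors allowed is not given in the sources used here.

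miR-541-5p, from the 3′ part of the Mirg group, had 21 and 16 reads in the AL and CR pools (8.64 and 4.94 RPM). In mitochondria it had 4, 1 and 4 reads under AL and 1, 1 and 0 under CR, at most 3.69 RPM. Its log2 fold change was -1.81 (SE 0.55, 3.50-fold lower, adjusted p = 0.0155), with all 6 mitochondrial libraries below both pools, and -1.83 without CR replicate 2 (adjusted p = 0.0167). The call was lost without the AL pool (0.116), without the CR pool (0.242), with no filter (0.0529) and in DESeq2 (0.0790), and the alternatives ranged from 0.00462 to 0.242.

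miR-127-5p, the minor arm of the miR-127 hairpin, went the other way. It had 1 read in the AL pool and 4 in the CR pool (0.411 and 1.23 RPM), against 4, 2 and 7 in AL mitochondria (3.69, 1.83 and 4.92 RPM) and 4, 8 and 4 in CR mitochondria (3.33, 5.07 and 3.74 RPM). The 6 mitochondrial libraries all lay above both pools, and the level was 2.60-fold higher as fitted (log2 fold change 1.38, SE 0.51, adjusted p = 0.0462). The log2 fold change was 2.52 in edgeR and in DESeq2, 0.58 with a pseudocount of 5 RPM, and 1.16 to 1.60 with single libraries left out. Its adjusted p was the highest of the 3. The call was lost without the AL pool (0.361), the CR pool (0.181), AL replicate 1 (0.0583) or 3 (0.0910) and CR replicate 1 (0.0510), 2 (0.0605) or 3 (0.0622). It was also lost with a pseudocount of 5 RPM (0.0597) and with no filter (0.1004), the alternatives ranging from 0.0152 to 0.361.

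The major arm, miR-127-3p, had a log2 fold change of -0.59 (SE 0.41, adjusted p = 0.284). The 5p arm took 3.76% of the hairpin's reads over both pools (95% interval 1.23% to 8.56%) and 20.4% over the mitochondrial libraries (14.1% to 28.0%). Library by library the share was 1.52% and 5.97% in the pools, 21.1%, 6.90% and 21.9% in AL mitochondria and 20.0%, 32.0% and 23.5% in CR mitochondria. Every mitochondrial share was above both pool shares, though AL replicate 2 lay close to the CR pool. The miR-434 hairpin gave 75.6% 5p reads in the pools (34 of 45) and 52.2% in mitochondria (12 of 23), with intervals of 60.5% to 87.1% and 30.6% to 73.2% that overlap. miR-379 kept to its 5p arm in both, at 99.2% of its reads in the pools and 99.6% in mitochondria.

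**Figure D3:**
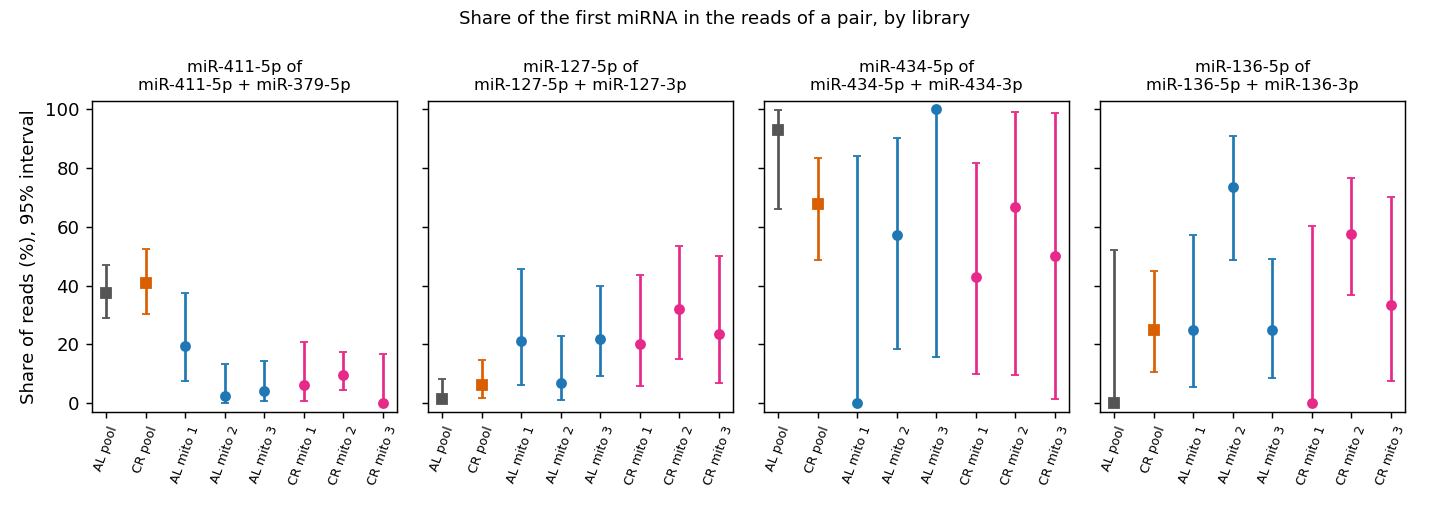
Share of the first miRNA in the summed reads of a pair in each library, with 95% counting intervals, for miR-411-5p against miR-379-5p and for the 5p arm of miR-127, miR-434 and miR-136. The miR-411-5p share is 37.6% and 41.0% in the pools and at most 19.4% in mitochondria, while the miR-434 and miR-136 shares overlap between the 2 kinds of RNA.

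The remaining members did not pass by limma between mitochondria and whole liver. miR-434-5p, on the strand opposite Rtl1, came next at 13 and 21 reads in the pools (5.35 and 6.48 RPM) and 0, 4, 2, 3, 2 and 1 reads in AL and then CR mitochondria (log2 fold change -1.55, SE 0.59, adjusted p = 0.0511). It passed in 3 of 15 alternatives, namely with a pseudocount of 5 RPM (0.0223), without AL replicate 2 (0.0194) and without CR replicate 1 (0.0425). miR-381-3p was at 2.88 and 6.48 RPM in the pools, at 8.31, 8.22 and 15.5 RPM in AL mitochondria and at 6.66, 17.7 and 15.9 RPM in CR mitochondria, with all mitochondrial values above the pools. Its log2 fold change was 1.19 (SE 0.49, limma adjusted p = 0.0695). miR-381-3p passed in 5 of 16 alternatives, namely with TMM factors (0.0320), with DESeq2 size factors (0.0294), in edgeR (0.0145), in DESeq2 (0.0172) and without CR replicate 1 (0.0298). miR-300-3p, whose sequence differs from that of miR-381-3p at 3 bases, had a log2 fold change of -0.28 (adjusted p = 0.708). Whether reads were shared between these 2 names was not tested.

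miR-134-5p, known for limiting dendritic spine growth in neurons, was at 2.88 (AL) and 0.617 (CR) RPM in whole liver and at 1.85 to 11.9 RPM in mitochondria, which overlap (log2 fold change 1.16, adjusted p = 0.129). It passed in 2 of 15 alternatives, namely in edgeR (0.0297) and without AL replicate 1 (0.0264). miR-154-5p had 0 reads in both pools and 1 or 2 in each mitochondrial library, 10 in all. Its combined mitochondrial level was 2.54 times a floor of 3 reads over both pools. That ratio leaves out the counting error of the 10 reads and is not a lower bound. miR-154-5p was 2.34-fold higher as fitted (log2 fold change 1.23, SE 0.54, adjusted p = 0.0897 by limma). It passed in edgeR (0.0123) and in DESeq2 (0.0437). However, it met the filter of 1 RPM in 3 libraries through mitochondria alone, the side where it is high. These results and its place among the 6 below are thus partly set by the filter. Of the 17 tested members 6 did not overlap between the 6 mitochondrial libraries and the 2 pools (35.3%), namely miR-411-5p, miR-541-5p, miR-434-5p, miR-127-5p, miR-381-3p and miR-154-5p. Of the 6, 3 were lower (17.6%) and 3 higher (17.6%). Over all miRNAs tested 42.0% did not overlap, 27.1% lower and 14.9% higher. The calls rest on having both pools. Without CR replicate 1 limma called 5 of 17 members, beside 132 of all 414 miRNAs. In edgeR 6 of 17 members were called, beside 167 of all 417 miRNAs.

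**Figure D4:**
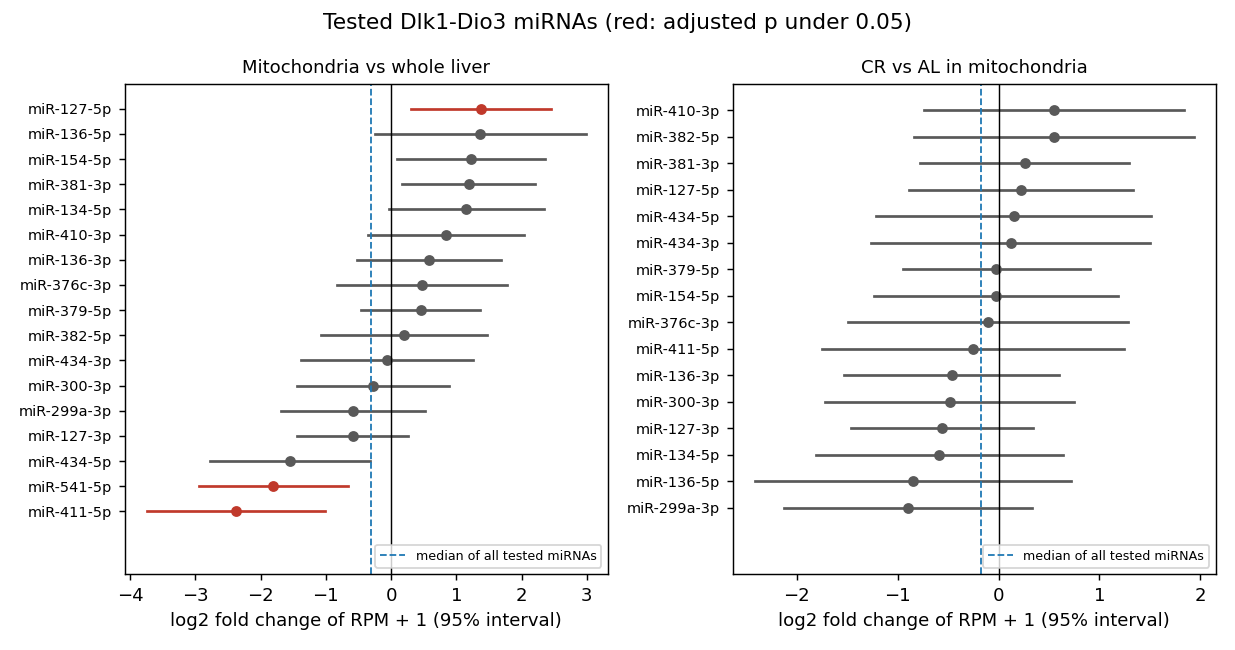
Log2 fold change of RPM + 1 with its 95% interval for each tested member between mitochondria and whole liver (17 members) and between CR and AL in mitochondria (16 members), with the median of all tested miRNAs dashed. In the first comparison miR-411-5p (-2.38), miR-541-5p (-1.81) and miR-127-5p (1.38) pass, and in the second no member does.

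The second comparison, the main question of the series, asks whether CR changes the mitochondrial levels. No member passed. The 2 with the smallest p were miR-299a-3p and miR-127-3p, both lower in the 3 CR libraries than in the 3 AL libraries. miR-299a-3p met the filter (1 RPM in 3 libraries) only through its AL libraries, which favours this order. By limma-trend 0 of the 16 members tested were called, with 0 at an unadjusted p under 0.05, and edgeR on the recovered reads also called 0 of 16. DESeq2 called 0 of the 5 members to which it gave an adjusted p, and gave none for the other 11, of which 0 had an unadjusted p under 0.05. Over all 391 miRNAs tested 0.512% were called and 13.3% stood at an unadjusted p under 0.05. The median log2 fold change was -0.06 over the members and -0.17 over all tested, where TMM factors moved the latter to 0.00 and DESeq2 size factors to 0.03. The members' median SE of 0.59 on the log2 scale, against 0.48 over all tested, leaves wide 95% intervals.

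For miR-127-3p the AL mean was 18.7 ± 5.49 RPM and the CR mean 12.1 ± 1.27 RPM (SD, n = 3 each). Its log2 fold change was -0.56 (SE 0.43, limma adjusted p = 0.625), with a 95% interval of -1.46 to 0.35. miR-299a-3p had 2 reads in each AL library and 1, 1 and 0 in the CR libraries (-0.90, SE 0.59, adjusted p = 0.544). Only its AL libraries reached 1 RPM, so its entry into the test and its order are not independent. miR-127-3p and miR-299a-3p were the tested members whose groups did not overlap, 12.5% of those tested, against 19.4% of all tested (14.3% lower and 5.12% higher). The log2 fold change was above 0 for 6 of the 16 members (37.5%) and for 37.6% of all tested. miR-379-5p stood at 30.3 ± 6.50 RPM under AL and 32.5 ± 18.8 RPM under CR (SD, n = 3 each), a log2 fold change of -0.022 with a 95% interval of -0.95 to 0.91. Its sign turned to positive with TMM factors (0.18) and DESeq2 size factors (0.21), and without CR replicate 2 it was -0.45. miR-381-3p (0.26), miR-127-5p (0.22), miR-434-5p (0.15), miR-434-3p (0.12) and miR-411-5p (-0.25) had adjusted p of 0.874 or more. miR-381-3p was at 0.019 without CR replicate 2 and 0.66 without CR replicate 1. miR-541-5p was too low to be tested here, at 2.47 ± 1.42 RPM under AL and 0.489 ± 0.435 RPM under CR (SD, n = 3 each). It is not part of the shares above. Its 3 CR values lay below its 3 AL values. However, AL replicate 2 and CR replicates 1 and 2 had 1 read each, so their order came from library depth. miR-337-5p, also too low to be tested, had the same order, with 1 read in each AL and 0 in each CR mitochondrial library. How many of all the untested names do so was not counted.

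miR-136-5p, from the hairpin next to miR-434, had 3, 14 and 5 reads in AL and 0, 15 and 3 in CR mitochondria, and 0 and 7 in the AL and CR pools (mitochondrial log2 fold change -0.85, SE 0.74, adjusted p = 0.658). The high values came from replicate 2 of both diets. The muscle list was also highest there, at 161 RPM (AL) and 129 RPM (CR), against 18.5 and 17.5 RPM in replicate 1 and 78.7 and 62.6 RPM in replicate 3, and its part in these values was not tested. For the diet, without CR replicate 1 the log2 fold change was 0.035. The miR-136 hairpin has an annotated antisense partner, miR-3071, and the mature sequences overlap on opposite strands, the shared 20 and 19 bases being in capitals.
miR-136-5p: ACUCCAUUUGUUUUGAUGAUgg
miR-3071-3p: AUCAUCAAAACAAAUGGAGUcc
miR-136-3p: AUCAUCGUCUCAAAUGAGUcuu
miR-3071-5p: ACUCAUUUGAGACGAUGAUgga
miR-3071-3p had 48 reads over the 8 libraries, against 47 of miR-136-5p, and its reads differed from those of miR-136-5p by at most 1 in any library. miR-3071-5p had 72 reads against 76 of miR-136-3p, and the largest difference in a library was 2. The same held for miR-337-3p and miR-3544-5p, which overlap over 21 bases on opposite strands and had 8 reads each, with no difference in any library. Reads of these antisense pairs cannot be told apart in these files. Of the 9 other numbers of the region fixed for this look-up (miR-432, miR-496b, miR-673, miR-1188, miR-1197, miR-1906, miR-3070, miR-3071 and miR-3072), only miR-3071 was listed.

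For miR-136-3p the levels were 8.31, 4.57 and 10.5 RPM in AL and 3.33, 6.97 and 5.60 RPM in CR mitochondria (log2 fold change -0.46, SE 0.51, adjusted p = 0.739), and for miR-134-5p they were 7.15 ± 5.04 and 3.59 ± 0.705 RPM (SD, n = 3; -0.59, adjusted p = 0.720). The miR-134-5p value was -1.22 without AL replicate 1 and -0.13 without AL replicate 2. Both ranges overlapped between the diets.

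In the whole-liver pools 3 members reached 10 RPM, and none differed 2-fold between the diets. The CR to AL ratio was 0.503 for miR-379-5p (95% interval 0.343 to 0.733), 0.580 for miR-411-5p (0.359 to 0.928) and 0.727 for miR-127-3p (0.506 to 1.04). All 3 were thus lower in the CR pool. With TMM factors the ratios were 0.623, 0.717 and 0.8996, and with DESeq2 size factors 0.564, 0.649 and 0.814. Among all 243 miRNAs that reached this level, 7.82% were lower under CR by 2-fold or more and 5.35% higher, and the median log2 ratio was -0.22 (over the 3 members -0.79). Each diet has a single pool, so the ratios set 1 library against another, with no replicate check of the diets.

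The interaction of diet and fraction, which asks whether the diet difference differs between mitochondria and whole liver, was called for 0 of the 17 members by limma, with 0 at an unadjusted p under 0.05, and for 0 by edgeR and by DESeq2. It was called for 0 of all 417 miRNAs by limma, with 1.20% at an unadjusted p under 0.05. The smallest p among the members were those of miR-136-3p (log2 difference -1.75, SE 1.05), miR-136-5p (-2.51, SE 1.51), miR-434-3p (-1.41, SE 1.30) and miR-379-5p (0.92, SE 0.90), each with a limma adjusted p of 0.998. The size for miR-136-5p moved with the processing, to -5.06 in edgeR, -5.48 in DESeq2, -0.87 with a pseudocount of 5 RPM and -1.62 without CR replicate 1, and that for miR-434-3p to -2.34 in edgeR, -2.67 in DESeq2 and -0.56 with that pseudocount. That for miR-379-5p was 0.50 without CR replicate 2. These reads are few: miR-434-3p had 1 read in the AL pool, 10 in the CR pool and 0 to 4 in the mitochondrial libraries.

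**Figure D5:**
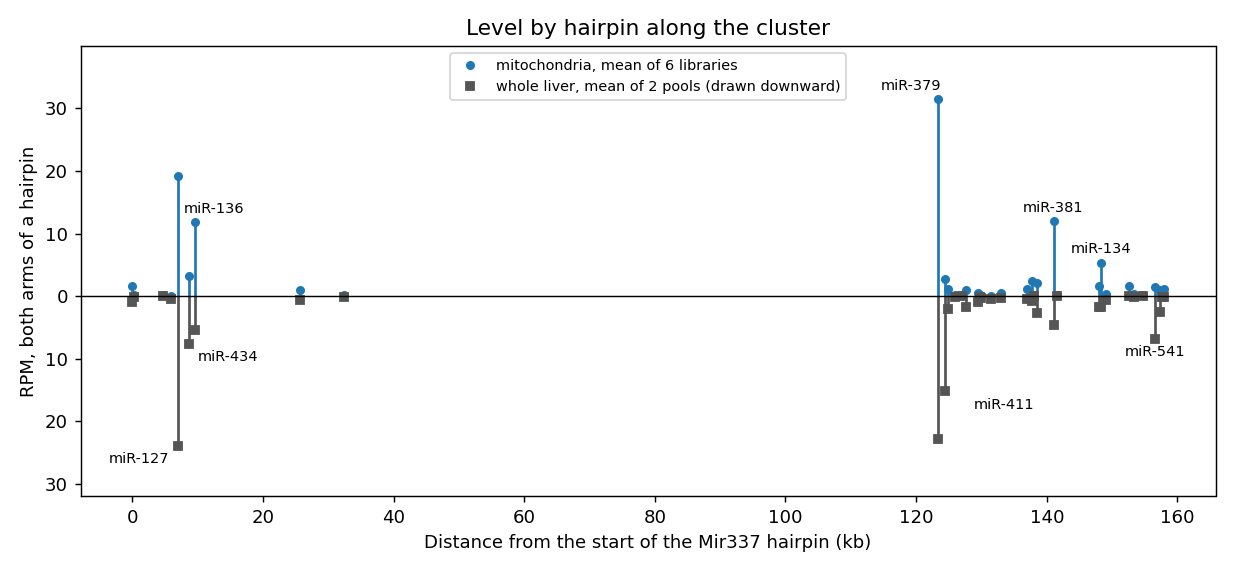
Mean RPM of both arms of each hairpin against its distance in kb from the start of Mir337, mitochondria upward and whole liver downward. miR-379 and miR-411 sit side by side at 31.5 and 2.69 RPM in mitochondria and at 22.8 and 15.2 RPM in whole liver.

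Along the cluster a few hairpins held most of the signal, at both ends of the region. In mitochondria the sum of both arms was 19.1 RPM for miR-127, 11.8 RPM for miR-136, 31.5 RPM for miR-379 and 12.0 RPM for miR-381, and 5.37 RPM or less for each other hairpin. In the pools miR-127 (23.9 RPM), miR-379 (22.8 RPM) and miR-411 (15.2 RPM) led, followed by miR-434 (7.66 RPM) and miR-541 (6.79 RPM). In bulk RNA such as this, fewer cells of a type and less RNA per cell cannot be told apart.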

How the data were processed

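The authors deposited 1 table of RPM per library, scaled so that the miRNA reads of each sum to 1000000 (the file headers say tpm). Reads were mapped with Bowtie to mm9, per the submitters' processing notes. How names were assigned, and which mismatches, multiple hits and strands were counted, is not given in the sources used here. Dividing by the lowest RPM of a table gave whole reads for 100% of 4141 values (tolerance 0.01 read), and these recovered reads were used as counts. A name missing from a table was set to 0.

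The main test was limma-trend on log2(RPM + 1), a scale that understates changes of low miRNAs, in limma 3.58.1 under R 4.3.3. Names needed 1 RPM or more in 3 or more libraries of the fit, and p-values were adjusted over all such names (threshold 0.05). The fraction fit used the 8 libraries and a diet term, and takes the spread of the pools to be that of mitochondria. edgeR 4.0.16 and DESeq2 1.42.0 on the recovered reads were alternatives. In mitochondria edgeR called 7 of all 391 miRNAs with the diet. Alternatives, with their effect given at the end, were other pseudocounts, filters and scalings, a replicate block and leaving out each library. Each fit was also run on simulated data, with large changes planted only in miRNAs at a higher level than most members. That run does not show how well changes of the low members would be found. Named members were those with a group mean of at least 10 RPM, those past the threshold, and those with the 4 smallest p of each test. miR-154-5p, miR-300-3p, miR-337-3p and others beside them were named after their values were seen. Members and lists were chosen with earlier results of these data known. Tables were handled with Python 3.11.15, pandas 2.3.3, numpy 2.4.6 and scipy 1.17.1, and plotted with matplotlib 3.10.9.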

Additional observations from a re-analysis of the deposited data

How the results depend on the processing

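The number of members called between mitochondria and whole liver was 3 in the main analysis, 0 with a filter of 10 RPM (3 members tested), 6 in edgeR and 0 to 5 when single libraries were left out. With no filter it was also 3, but these were miR-433-3p, miR-543-3p and miR-1193-3p, with 3, 3 and 2 reads in the pools and 0 in mitochondria. With no filter the interaction called 6 members, each with 1 to 8 reads in all. Over all miRNAs the diet calls in mitochondria were 2 in the main analysis, 5 with either other scaling, 7 in edgeR, 11 in DESeq2, 10 with no filter, 8 with the 10 RPM filter, 3 with the replicate block and 0 to 6 with single libraries left out; those between fractions fell to 65 without the AL pool and to 58 without the CR pool. No alternative called a member with the diet in mitochondria, and the replicate block (0 called) changed no call. Same-numbered libraries were not treated as pairs, since the labels do not tie them. The correlations of their deviations over all miRNAs were all positive, at 0.36, 0.08 and 0.11. Between libraries of different number they ran from -0.29 to 0.22, and AL replicate 2 correlated best with CR replicate 3 (0.22). The muscle list and miR-136-5p were highest in replicate 2 of both diets. Whether same-numbered libraries share a batch was not tested.

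With the diet, miR-379-5p turned to 0.18 (TMM factors), 0.21 (DESeq2 size factors), 0.23 (edgeR) and 0.29 (DESeq2), and miR-411-5p to 0.22 (edgeR) and 0.17 (DESeq2). Between fractions miR-434-3p turned to 0.056, 0.082, 0.32 and 0.37 under the same 4. With single libraries left out, the diet value of miR-379-5p ranged from -0.45 to 0.29, of miR-411-5p from -0.93 to 0.44, of miR-127-5p from -0.078 to 0.46, of miR-136-5p from -1.66 to 0.035, of miR-434-3p from -0.45 to 0.40 and of miR-434-5p from -0.43 to 0.68. The fraction value ranged from -0.29 to 1.46 for miR-136-3p, from -0.0075 to 0.92 for miR-379-5p and from -0.77 to 0.64 for miR-434-3p. The cause was not tested.

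The summed level moved to 198 RPM in AL mitochondria, 182 RPM in CR mitochondria, 158 RPM in the AL pool and 127.7 RPM in the CR pool without miR-122 in the totals, which enlarges every RPM by construction. Without miR-379-5p it was 84.1, 65.8, 88.0 and 79.0 RPM. The AL pool stood at 90.9 RPM with TMM factors and 94.9 RPM with DESeq2 size factors, where the CR pool stood at 89.7 and 84.7 RPM. With a read worth up to 0.934 RPM, the 36 names with 10 reads or fewer allow little comparison. Among them miR-154-5p, at 10 reads, passed between fractions in edgeR and DESeq2, but had met the filter through mitochondria alone.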
